A study of Boechera stricta with 13 samples.

Results

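In Boechera stricta, 61 annotated genes were called with herbivory both in plants of the Big Horns and in plants of the Black Hills. They are the genes of the genome annotation that appeared in the deposited list of called genes of both populations. These 61 genes were therefore chosen by the measured herbivory calls, whatever their direction, out of 2934 annotated genes listed in at least 1 of the 9 comparisons of the study. In all, 55 of them were up-regulated in both populations and 6 were down-regulated in both, and 0 moved in opposite directions. They made up 48.4% of the 126 annotated genes listed for herbivory in Big Horns and 41.2% of the 148 listed in Black Hills. The background share of the 2934 genes listed up with herbivory was 3.27% in Big Horns and 3.24% in Black Hills, and the share listed down was 1.02% and 1.81%. Nothing is read from these shares, since the same lists chose the genes.

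Boechera stricta is a wild perennial relative of Arabidopsis. RNA from whole shoots (labelled as whole plant) of 13 caged plants was sequenced to ask how drought alters the response to a leaf-feeding insect, and whether a high elevation and a low elevation population differ in it. The 7 Big Horns plants came from the high elevation population and the 6 Black Hills plants from the low elevation one, each population being represented by a single line, so that plants of a population are close relatives. Control plants (1 per population) were watered and not fed upon. Herbivory plants (1 per population) were watered and carried early instar larvae of the beet armyworm Spodoptera exigua, a generalist caterpillar, for the last days before harvest. Drought plants (2 per population) went through several weeks of ever sparser watering without larvae. Plants labelled Both Drought and Herbivory, called the double challenge here, had the same dry-down followed by the larvae, with 3 plants in Big Horns and 2 in Black Hills.

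When a caterpillar chews a leaf of a plant of the mustard family, wounding and compounds from the insect's mouth trigger the synthesis of jasmonates. These hormones release transcription factors from their repressors and switch on genes for anti-digestive proteins and for the synthesis of glucosinolates, the mustard oil precursors that deter generalist insects. Drought acts mainly through another hormone, abscisic acid, which closes stomata and switches on protective genes, and the pathways are known to share some regulators in Arabidopsis. Which of the 61 genes belong to which pathway cannot be said here. The tables gave a name or description for 0 of the 61, no annotation was used that pairs their identifiers with gene names, and the tissue label could not be checked against marker genes for the same reason. The genes are therefore described by their levels. Up-regulated and down-regulated genes were each ranked by the mean log2 change over both populations, and identifiers are given for the first 2 of each ranking.

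Levels are in FPKM, the fragments of a transcript divided by its length in kilobases and by the size of the library. Each table lists a linear fold change and the FPKM summed over the groups compared, and from both the level in either group follows. The folds of single genes given below are thus those of the deposited comparisons. Within a population the control and the herbivory group consist of 1 plant each, and the FPKM derived for them belong to single plants. All other groups give 1 value over 2 to 5 plants without a spread. No test across plants was therefore possible, the fold changes below carry no error, and the calls are those of the deposited lists (a q of at most 0.05). For herbivory within a population this q compares 1 plant with 1. It does not measure the spread between plants of the same treatment. In whole shoots, a change in the share of a cell type and a change in RNA per cell cannot be told apart. By the lane codes in the sample descriptions, the 7 Big Horns libraries ran in one lane and the 6 Black Hills libraries in another, so that population and lane cannot be told apart either.

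The 55 up-regulated genes were mostly low in control plants and reached moderate to very high levels under larval feeding. Their FPKM ran from 0.627 to 119 with a median of 9.06 in the Big Horns control plant, and from 12.5 to 3688 with a median of 87.7 in the Big Horns herbivory plant. In Black Hills the control plant had 0.835 to 273 FPKM with a median of 11.3, and the herbivory plant had 13.7 to 6736 FPKM with a median of 93.9. For all 55 genes both herbivory plants lay above both control plants, as the choice of the genes requires within each population. Across populations the choice does not require it, but the share among other genes was not computed and nothing is read from this count. The median gene was 8.80-fold higher with herbivory in Big Horns (3.70-fold to 529-fold) and 8.22-fold higher in Black Hills (4.38-fold to 529-fold). A rise of at least 4-fold in both populations was seen for 53 of the 55 genes and of at least 8-fold in both for 22. Only 1 of the 55 genes exceeded 100 FPKM in the Big Horns control plant and 3 did in the Black Hills control plant, against 25 and 26 with herbivory.

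**Figure D1:**
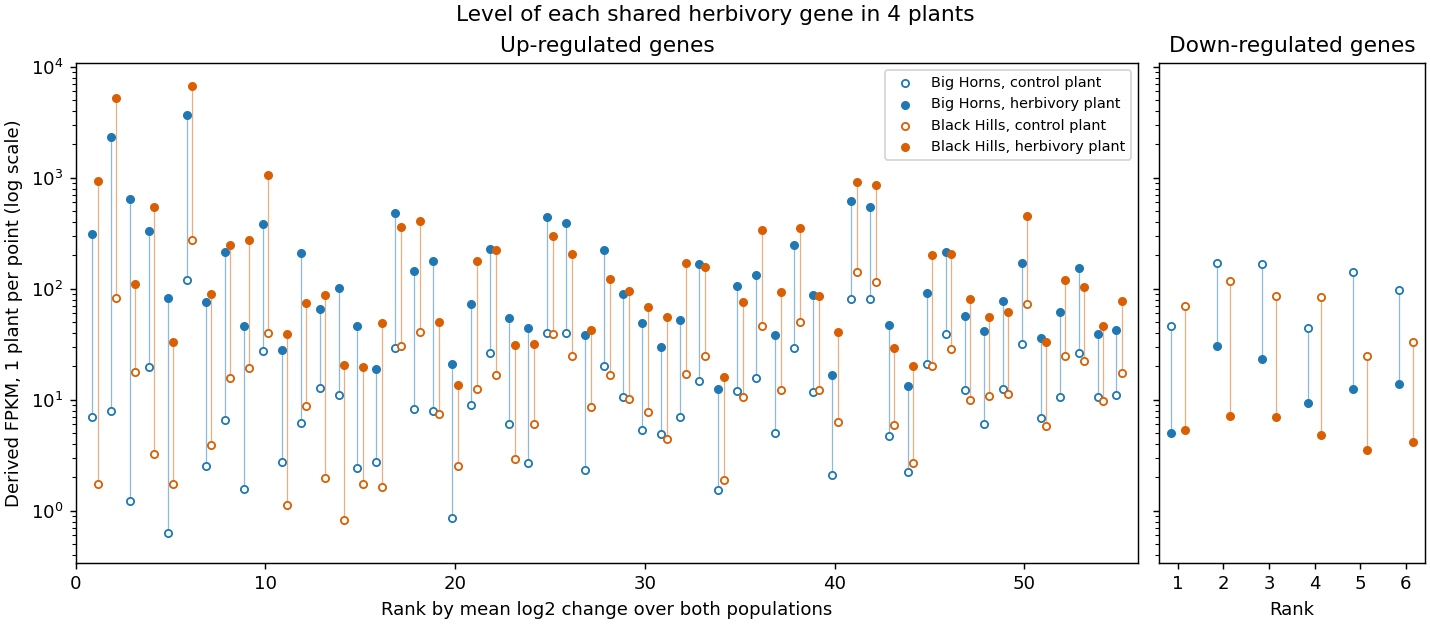
Derived FPKM (log scale) of each gene called with herbivory in both populations, ranked by its mean log2 change; open circles are the control plant and filled circles the herbivory plant, 1 plant per point, in blue for Big Horns and orange for Black Hills. The 2 highest points with herbivory in each population belong to the up-regulated genes ranked 2 and 6. In the 6 down-regulated genes both control plants lie above both herbivory plants, which the choice of the genes requires within each population. Across populations the choice does not require it, but the share among other genes was not computed and nothing is read from it.

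The largest mean rise belonged to Bostr.27895s0060. This gene had 6.93 FPKM in the control plant and 311 FPKM in the herbivory plant of Big Horns, and 1.76 FPKM and 929 FPKM in those of Black Hills. The Black Hills plants thus held both the lowest and the highest value, and the rise was 45.0-fold in Big Horns and 529-fold in Black Hills.

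The next in rank, Bostr.10040s0023, was among the most abundant of the 55 transcripts under feeding. Its FPKM was 7.95 in the control plant and 2312 in the herbivory plant of Big Horns, against 82.3 and 5255 in Black Hills. Both Black Hills plants were higher than the Big Horns plants of the same treatment, and since the controls differed by 10.3-fold and the herbivory plants by 2.27-fold, the rise was larger in Big Horns (291-fold) than in Black Hills (63.9-fold). The gene numbered next to it on the same scaffold, rank 6, was the highest of all 55 in each of the 4 plants: its FPKM was 119 and 3688 in Big Horns and 273 and 6736 in Black Hills. Together these 2 neighbours held 42.5% of the FPKM summed over the 55 genes in the Big Horns herbivory plant and 53.6% in the Black Hills herbivory plant. The sum itself went from 902 FPKM in control to 14118 FPKM with herbivory in Big Horns (15.7-fold) and from 1387 to 22361 FPKM in Black Hills (16.1-fold), so that a large part of the summed rise rested on this pair.

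The rise of these genes in each population is a description, since being called in both lists, neither of which holds a fold under 3.61, chose them and partly fixes their medians and the likeness between populations. The median log2 change over the 55 genes was 3.14 in Big Horns and 3.04 in Black Hills. The change was larger in Big Horns for 31 genes and larger in Black Hills for 24. For 36 genes the changes of both populations lay within 1 log2 unit of each other, with a median gap of 0.54. Across the 55 genes the log2 changes had a Pearson correlation of 0.36 and a Spearman correlation of 0.39. This describes genes, which are not independent replicates, measured in 4 plants, with each change sharing its herbivory and control library over all genes. With 1 plant per group, a difference between populations in any gene could not be tested.

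**Figure D2:**
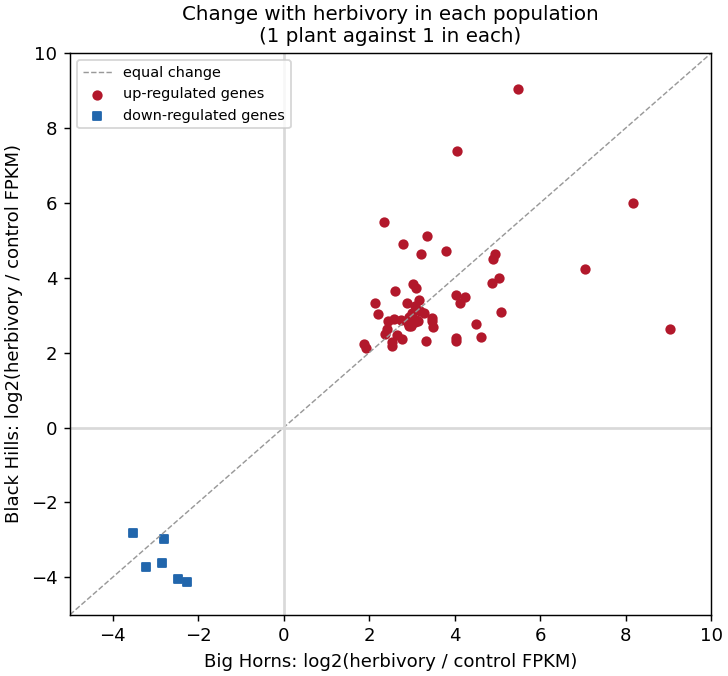
Log2 ratio of herbivory to control FPKM in Big Horns (x axis) against Black Hills (y axis), 1 point per gene and 1 plant against 1 in each population, with the dashed line at equal change. Of the 55 up-regulated genes 36 lie within 1 log2 unit of the line, and all 6 down-regulated genes are negative in both populations.

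For 9 up-regulated genes the gap between populations exceeded 2 log2 units, with the larger rise in Big Horns for 5 of them and in Black Hills for 4. In all 9 the larger rise was found in the population whose control plant had the lower level, which is partly built into a ratio to that control. The widest gap, 6.43 log2 units, was that of the gene ranked 3. It had 1.23 FPKM in control and 649 FPKM with herbivory in Big Horns, against 17.8 and 110 FPKM in Black Hills. Its Big Horns plants thus held both the lowest and the highest value, the reverse of Bostr.27895s0060, and the rise was 529-fold in Big Horns and 6.15-fold in Black Hills. Over all 55 genes, the Black Hills control level was 1.25 times that of Big Horns at the median (0.0752 to 14.5 times) and within 2-fold for 33 genes. With herbivory the ratio was 1.28 at the median (0.169 to 5.99 times) and within 2-fold for 36 genes.

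The gene with the largest rise lay in a run of 4 up-regulated genes with consecutive numbers on 1 scaffold, ranked 1, 4, 11 and 13. Neighbouring genes of this kind are often tandem copies in plants, and reads shared between near-identical copies can be split among them by the counting. Whether these 4 are copies was not examined, so their separate values are uncertain. In the control plants their FPKM was 2.77 to 19.8 in Big Horns and 1.13 to 3.23 in Black Hills, and each was lower in Black Hills, at 0.154 to 0.407 times the Big Horns level. With herbivory each was higher in Black Hills, at 1.35 to 2.98 times the Big Horns level, with 28.3 to 330 FPKM in Big Horns and 39.1 to 929 FPKM in Black Hills. The rise was accordingly 5.10-fold to 45.0-fold in Big Horns and 34.6-fold to 529-fold in Black Hills. The pair of ranks 2 and 6 was the only other run of consecutive numbers. The remaining genes were scattered, the 61 genes lying on 36 scaffolds, of which 21 held 1 gene each and none more than 6.

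With the populations pooled (2 herbivory against 2 control plants), all 61 genes were listed again in the same direction. The 55 up-regulated genes rose by a median of 9.10-fold (4.13-fold to 134-fold). Of the 2934 annotated genes listed in any comparison 8.42% were listed up and 4.23% down in this one. It holds the same 4 plants that chose the genes and is therefore no independent evidence. The pooled FPKM was close to the mean of both plants, 0.895 to 1.09 times it for control and 0.891 to 1.08 times for herbivory.

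The comparison of double challenge with drought shares no plant with the lists that chose the genes, and asks whether they also responded to larvae on droughted plants. Of the 55 up-regulated herbivory genes, 54 (98.2%) were listed up and 0 listed down between drought and the double challenge. Of the 2934 annotated genes listed in any comparison 33.2% were listed up and 21.9% down in this one. The 54 genes went from a median of 9.40 FPKM in drought (1.22 to 104) to a median of 110 FPKM in the double challenge (12.7 to 7500). Their median fold change was 10.2 (2.58 to 159), with 49 genes at 4-fold or more and 38 at 8-fold or more. Bostr.27895s0060 had 4.38 FPKM in drought and 695 FPKM in the double challenge (159-fold), again the largest rise. Bostr.10040s0023 had 59.5 FPKM and 6009 FPKM (101-fold), and its neighbour of rank 6 had 104 FPKM and 7500 FPKM (71.9-fold).

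**Figure D3:**
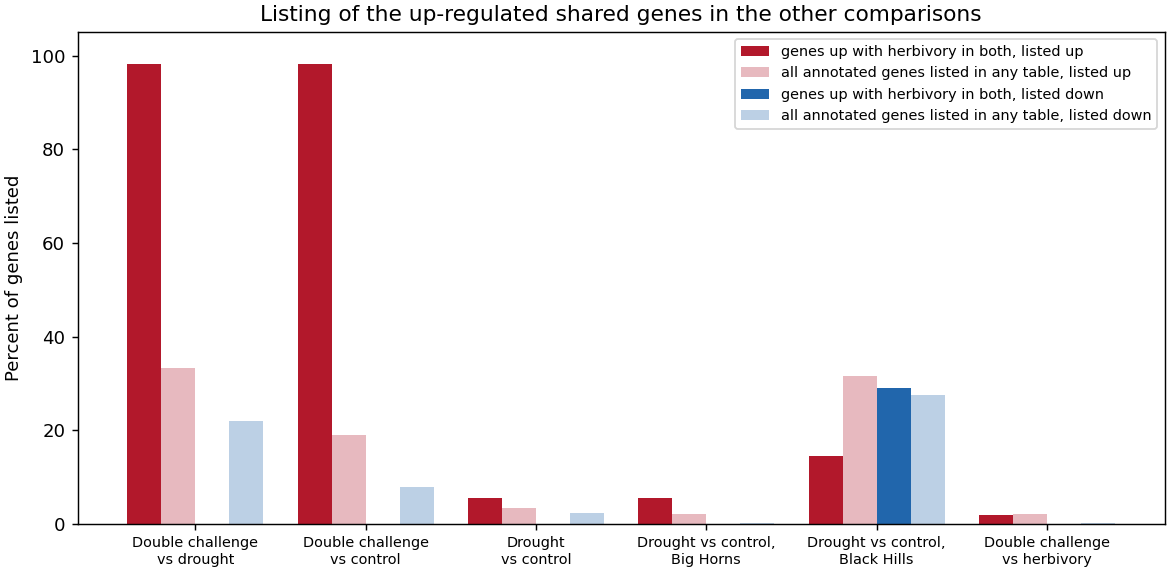
Percent of genes listed in each comparison that did not choose them, for the 55 genes up-regulated by herbivory in both populations (dark bars) and for all 2934 annotated genes listed in any comparison (pale bars), in red for listed up and blue for listed down. The dark red bars stand at 98.2% in both comparisons of larvae with no larvae at the left and at 14.5% for drought in Black Hills.

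Genes called with herbivory in 1 population only were also mostly listed up on droughted plants. Of 41 annotated genes up-regulated in Big Horns only, 36 (87.8%) were listed up in the double challenge against drought. Of 40 up-regulated in Black Hills only, 37 (92.5%) were listed up and 3 were listed down. These shares are somewhat below the 98.2% of the shared genes, and the difference was not tested. For most of the up-regulated shared genes the rise was of similar size with and without drought, where the watered values are those that chose the genes. The double challenge pooled 3 Big Horns and 2 Black Hills plants and the other groups equal numbers. Differences between populations therefore enter the comparison of sizes. Over the 54 genes the mean log2 change of the watered plants and the log2 change of the droughted plants had a Pearson correlation of 0.79 and a Spearman correlation of 0.72, as a description across genes of 1 set of libraries each. Relative to the pooled watered plants, the rise was larger on droughted plants for 35 genes and smaller for 19, and the difference was within 1 log2 unit for 46.

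Against control plants, the double challenge gave the same list. The same 54 genes were listed as up-regulated (98.2%) and 0 as down-regulated. Of the 2934 annotated genes listed in any comparison 19.0% were listed up and 7.91% down in this one. The median fold change was 8.65 (3.30 to 187). Bostr.27895s0060 had 3.75 FPKM in control and 702 FPKM in the double challenge in this comparison. The control plants are those of the herbivory lists, so that a low control level raises both fold changes.

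Between the double challenge and herbivory, 1 of the 55 up-regulated genes (1.82%) was listed as higher in the double challenge and 0 as lower. Of the 2934 annotated genes listed in any comparison 2.18% were listed higher and 0.170% lower in this one. Each of these was called at least once, so the share over all genes tested is unknown. Nothing is read from the nearness of both shares. The smallest fold change listed there was 2.15, but larger differences could be missing from the list too, and a gene absent from it may still have differed. The herbivory plants are also those that chose the genes. Dividing the fold change of the double challenge by that of pooled herbivory, both against the same control plants, gave the ratio of the double challenge to herbivory for 54 genes. Its median was 1.05 (0.517 to 4.55), it lay within 2-fold for 52 genes, and it was above 1 for 31 and below 1 for 23. The double challenge held more Big Horns than Black Hills plants and herbivory equal numbers, so the ratio also carries differences between populations. The genes above 2-fold were those of rank 19, at 3.49, and of rank 27, at 4.55. The rank 27 gene was the listed one, with 39.3 FPKM in herbivory and 168 FPKM in the double challenge (4.28-fold).

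**Figure D4:**
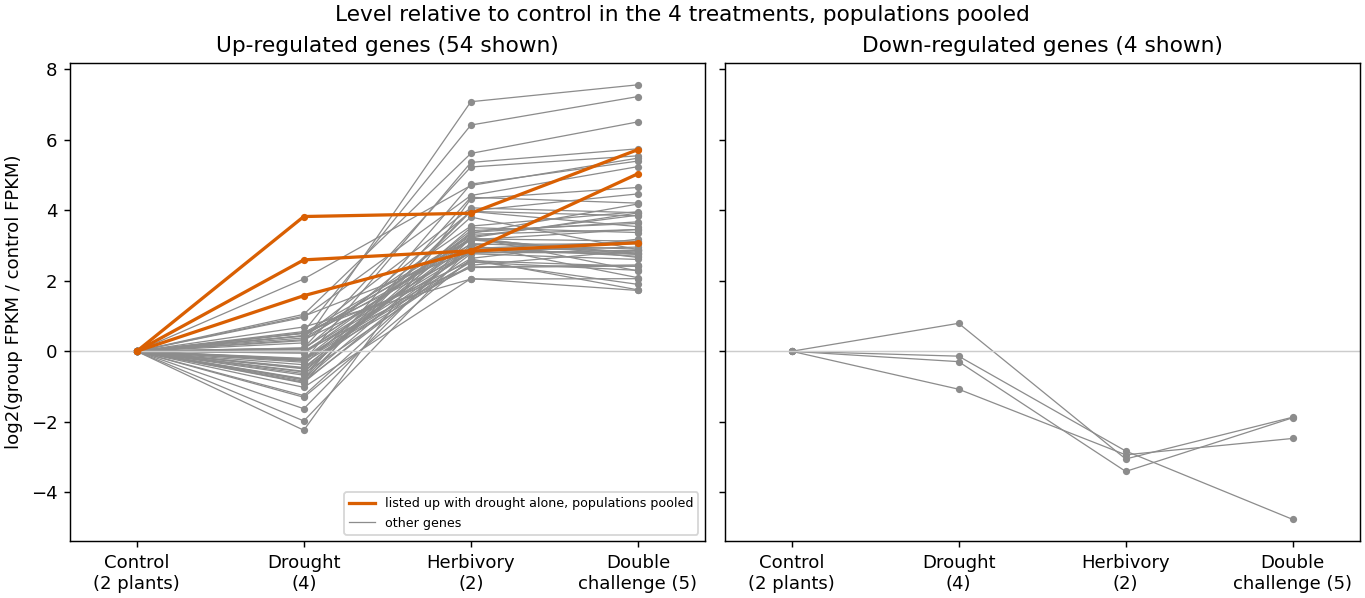
Log2 ratio of each group's FPKM to control FPKM, populations pooled, for the 54 up-regulated and 4 down-regulated genes whose level could be derived in all 4 treatments; each line is a gene and the number of plants per group is given in parentheses. Most up-regulated genes lie near 0 with drought alone and high with herbivory and the double challenge, whereas the 3 genes in orange were already listed up with drought alone.

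With drought alone and the populations pooled, 3 of the 55 up-regulated genes (5.45%) were listed up and 0 down. Of the 2934 annotated genes listed in any comparison 3.44% were listed up and 2.32% down in this one. Each of these was called at least once, so the share over all genes tested is unknown. The share of the herbivory genes thus says nothing particular about them. The smallest fold change listed was 2.05, and a gene absent from the list may still have moved. The rank 19 gene went from 7.46 FPKM in control to 104 FPKM in drought (13.9-fold), a level close to its 116 FPKM in pooled herbivory. This closeness did not hold in both populations. In Big Horns the gene had 187 FPKM in drought and 178 FPKM with herbivory, but in Black Hills 15.7 and 50.2 FPKM. The rank 27 gene went from 5.47 to 30.1 FPKM (5.51-fold) and the rank 39 gene from 12.2 to 35.3 FPKM (2.90-fold). The ratio of drought to control, obtained through the double challenge that both were compared with, had a median of 0.918 over 54 genes (0.212 to 14.1). It was within 2-fold for 43 genes, above 2-fold for 5 and below 0.5 for 6. Among the 5 was the rank 7 gene, at a ratio of 4.14, which was not listed. The lowest ratio, 0.212, was that of the rank 12 gene. This gene had 1.47 FPKM in drought and 172 FPKM in the double challenge (118-fold), and 7.05 FPKM in control and 141 FPKM in herbivory (20.0-fold) in watered plants.

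Within populations, the drought lists differed. Each of them uses the control plant of its population that also served to choose the genes. In Big Horns the same 3 genes were listed up and 0 down, beside 2.18% and 0.170% of the 2934 annotated genes listed in any comparison. The rank 19 gene had 7.61 FPKM in the control plant and 187 FPKM over the 2 drought plants, the rank 27 gene had 2.27 and 51.7 FPKM, and the rank 39 gene had 11.3 and 51.1 FPKM. In Black Hills 24 of the 55 genes were listed with drought, 8 as up-regulated (14.5%) and 16 as down-regulated (29.1%). Among the 2934 annotated genes listed in any comparison 31.5% were listed up and 27.4% down there. This list itself supplied a large part of that background, which raises these shares. The lower share of rises among the herbivory genes is therefore not read as a trait of theirs. The smallest fold change listed with drought was 1.52 in Black Hills, against 3.13 in Big Horns. The number of genes listed in each population therefore does not compare their responses. Only the rank 19 gene was listed with drought in both populations, as up-regulated in each, so that agreement in direction could hardly be examined.

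The 16 genes that rose with herbivory and fell with drought in Black Hills fell by a median of 2.65-fold (1.61-fold to 8.57-fold). Both changes were taken against the same single control plant, where the 16 genes had a median of 17.4 FPKM. A high level in that plant deepens the fall with drought, and its part in these falls was not tested. The deepest fall was that of the rank 28 gene, from 16.7 to 1.95 FPKM, while with herbivory the same population went from 16.9 to 122 FPKM. This gene was also the only up-regulated one absent from both lists of the double challenge, against drought and against control. The rank 36 gene fell from 45.7 to 5.56 FPKM with drought in Black Hills (8.21-fold) and had 7.48 FPKM in pooled drought and 190 FPKM in the double challenge (25.4-fold). Of the 6 genes with a pooled drought to control ratio below 0.5, 5 were among these 16.

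The 8 genes that rose both with herbivory and with drought in Black Hills did so by a median of 2.56-fold with drought (1.93-fold to 5.08-fold). They included the whole run of 4 neighbouring genes, with rises of 2.97-fold to 5.08-fold. Both changes of the 8 genes were taken against the same single control plant, where their median was 3.09 FPKM. A low level in that plant raises both fold changes, and its part in these rises was not tested. Bostr.27895s0060 went from 1.74 FPKM in the Black Hills control plant to 6.61 FPKM over the 2 drought plants, far below the 929 FPKM of the herbivory plant. The rank 4 gene of the run went from 3.20 to 16.2 FPKM, below the 19.8 FPKM of the Big Horns control plant. With the populations pooled, the ratio of drought to control for the 4 genes was 0.717 to 1.35. The rank 10 gene was the highest of the 8 in drought, at 39.4 FPKM in control, 78.4 FPKM in drought and 1057 FPKM with herbivory. At a threshold of 4-fold, 5 of the 24 listed genes remained, 4 of which had fallen.

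**Figure D5:**
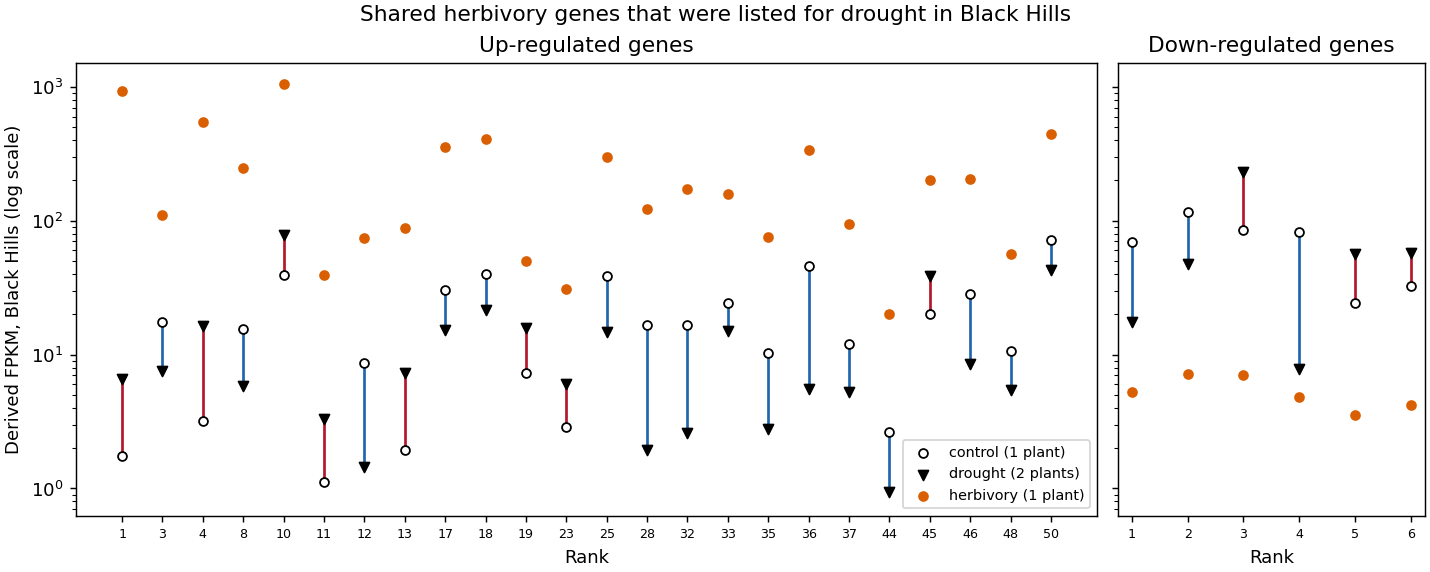
Derived FPKM (log scale) in Black Hills of the shared herbivory genes listed with drought there, by rank, for the control plant (open circles), the drought group (triangles, 1 value over 2 plants) and the herbivory plant (orange); red lines mark rises and blue lines falls from control to drought. In the left panel all 24 herbivory values lie above the drought values, and in the right panel all 6 lie below them.

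The 6 down-regulated genes had substantial levels in the control plants and low levels under feeding. They were 20.0% of the 30 annotated genes listed down in Big Horns and 11.3% of the 53 listed down in Black Hills. The 55 up-regulated genes were 57.3% of 96 and 57.9% of 95, and the difference between directions was not tested. Bostr.20129s0472, first by its mean fall, had 46.5 FPKM in control and 4.97 FPKM with herbivory in Big Horns, and 69.9 and 5.30 FPKM in Black Hills. Both herbivory plants were thus close to each other and below both controls. Bostr.10273s0418 had 170 and 30.8 FPKM in Big Horns and 118 and 7.11 FPKM in Black Hills, with the lower herbivory level in Black Hills. The median fall was 7.06-fold in Big Horns (4.76-fold to 11.4-fold) and 12.7-fold in Black Hills (6.99-fold to 17.5-fold), and 5 of the 6 fell further in Black Hills. Their summed FPKM went from 667 to 94.6 in Big Horns and from 415 to 31.9 in Black Hills.

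On droughted plants the falls were seen in part. Of the 6 genes, 4 were again listed down between drought and the double challenge, and all 6 between control and the double challenge. Of the 2934 annotated genes listed in any comparison 21.9% and 7.91% were listed down in these. The genes missing from the former list, down-regulated ranks 1 and 4, were the same that were listed as falling with drought alone, populations pooled. In that comparison 2.32% of the 2934 listed genes were listed down. Bostr.20129s0472 went from 58.1 FPKM in control to 20.3 FPKM in drought and stood at 12.2 FPKM in the double challenge. The gene of down-regulated rank 4 went from 61.1 to 14.8 FPKM and stood at 7.52 FPKM. Bostr.10273s0418 had 64.0 FPKM in drought and 24.4 FPKM in the double challenge (2.63-fold lower). The deepest fall on droughted plants was that of down-regulated rank 6, from 50.8 to 2.06 FPKM (24.7-fold), below its 8.98 FPKM in pooled herbivory.

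With the double challenge, 5 of the 6 down-regulated genes stood above their herbivory level by the derived ratio, at up to 2.87 times it, and rank 6 stood at 0.261 times. The genes were chosen as low in these same herbivory plants, which by itself can place another group higher. A weaker fall under the double challenge is therefore not read from this count. The gene of down-regulated rank 5 was the only one of the 6 listed between these groups, where 2.18% of all annotated genes were listed higher, with 7.42 FPKM in herbivory and 20.0 FPKM in the double challenge. In Black Hills all 6 genes were listed with drought alone, against the control plant that also served to choose them. Of the 2934 listed genes 31.5% were listed up and 27.4% down there. The genes of ranks 1, 2 and 4 fell, by 2.45-fold to 10.6-fold. Those of ranks 3, 5 and 6 rose by 1.77-fold to 2.74-fold, against their direction with herbivory. The largest of these rises took the rank 3 gene from 85.0 to 233 FPKM, where herbivory took it from 86.0 to 7.00 FPKM. None of the 6 was listed with drought in Big Horns, where 2.18% of the 2934 listed genes were listed up and 0.170% down.

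Over all 9 comparisons, most up-regulated genes appeared in the lists that contrast larvae with no larvae and, apart from drought in Black Hills, in few others. Much of this is given by the choice, since 2 of the larvae lists chose the genes. The pooled herbivory list and that of the double challenge against control share plants with them. Of the 55 genes, 1 was listed in 4 comparisons, 29 in 5, 22 in 6, 1 in 7 and 2 in 8. The genes listed in 8 were those of ranks 19 and 27, which also rose with drought in Big Horns. Among the members closest to the limit of the lists, 9 up-regulated genes and 1 down-regulated gene had a q above 0.04 in at least 1 population, and the smallest fold change among the 61 was 3.70, where the smallest fold listed for any gene was 3.62 in Big Horns and 3.61 in Black Hills. Genes just past the limit of q were not analysed here, since the lists hold called genes only.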

How the data were processed

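RNA from whole shoots of 13 plants was sequenced as single reads, and each plant took its group from its labelled treatment and population. Reads were mapped by the authors with TopHat2 (maximum intron length of 5000, named with FastQC 0.10.1 in the submitters' processing notes) to a Boechera stricta genome whose build was not given in the sources used here. Cufflinks2 and Cuffmerge2 built the transcript models, and Cuffdiff2 made the comparisons. Of the 9 deposited tables, each listing called genes, 5 have the populations pooled and 4 are within a population. The deposited FPKM is a sum over the groups compared, and its scale was set separately in each table. The fold change that the authors deposited is the linear ratio of the groups, with its direction in another column, and the q-value that the authors deposited is the false discovery rate of Cuffdiff2. These columns hold the authors' own comparisons. The ratio was used to split the sum into the FPKM of each group. The fold of a gene within 1 comparison is therefore the fold change of Cuffdiff2 by construction and no separate estimate, and the smallest listed folds and the counts by q come straight from these columns. Sums, ratios between populations and ratios between tables were computed here.

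Genes were selected by identifier as present in both population lists for herbivory. The genes, lists and measures were chosen with earlier results of these data known. Identifiers were printed by a rule for the case that nothing pairs them with names: the 2 up-regulated and 2 down-regulated genes with the largest mean log2 change over both populations, among genes with at least 1 FPKM in all 4 plants. Other genes are given by rank. Gene lists for jasmonate, wound, glucosinolate and water deficit genes could not be used, since 0 of their symbols matched. The background of each comparison is the share of the 2934 annotated genes listed in any table that it lists. These genes were called at least once, and the number tested is unknown. Ratios between treatments in different tables were taken through a group present in both, so that the scale of the tables cancels. The FPKM of the double challenge differed between its tables by a median factor of 0.992 (635 of 637 genes within 10% of it), and that of pooled control by 0.932 (327 of 335). The splitting was checked on simulated tables. The depth of a library is unknown, and no test, interval or replicate error could be computed for a gene. Alternatives were a q of at most 0.01, a log2 change of 2 or more, a minimum of 1 FPKM, pseudocounts of 1 and 0.1 FPKM, and assembled transcripts included. Computations used scipy 1.17.1, numpy 2.4.6 and pandas 2.3.3 under Python 3.11.15, with figures drawn in matplotlib 3.10.9.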

Additional observations from a re-analysis of the deposited data

How the results depend on the processing

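Of 48 values recomputed under the alternatives, 41 stayed within 1.5 times the count reported or within the interval of the median, and 7 did not. At a q of at most 0.01 in each list, 28 of the 61 genes were listed in both populations. The larger change was then in Big Horns for 16 of the remaining 26 up-regulated genes, against 31 of 55, and 1 gene rather than 3 was listed with drought in Big Horns and 0 rather than 2 between the double challenge and herbivory. At a log2 fold change of at least 2, 3 genes rather than 5 were listed with pooled drought, 6 rather than 30 with drought in Black Hills, and 1 rather than 2 between the double challenge and herbivory. Fewer genes pass a stricter threshold by its construction. The median log2 change of the up-regulated genes had an interval from order statistics (95%, genes taken as independent, which they are not) of 2.94 to 3.48 in Big Horns and 2.83 to 3.34 in Black Hills. No paired analysis was possible because each table gives 1 value per group, and no plant could be left out for the same reason.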
